A study of Homo sapiens with 10 samples.

Results

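The 32 genes described here are a fixed list of pluripotency and reprogramming genes, chosen by name, out of 20037 protein-coding genes placed on chromosomes 1 to 22, X and Y. Their positions on GRCh38 were compared with H3K9me3 regions called after knockdown of ERH in BJ cells, which are fibroblasts grown from human foreskin. H3K9me3, histone H3 carrying 3 methyl groups on lysine 9, is a mark of heterochromatin. It was profiled by CUT&RUN, in which a nuclease tethered to an antibody cuts out the DNA around the marked nucleosomes for sequencing. The regions come from 1 merged list for the 3 samples that received siRNA against ERH at 5 nM in 2 rounds, 3 days apart. These samples are not labelled as infected with reprogramming factors. The 3 H3K9me3 samples given control siRNA were not analysed here, nor were the SOX2 samples (2 control, 2 ERH knockdown) taken 48 hours after infection with Sendai virus for OCT4, SOX2, KLF4 and c-MYC. All samples came from a single cell line, with 1 siRNA product named for ERH, and the list carries neither read counts nor expression values. Fibroblast identity and the extent of the knockdown could therefore not be checked from it, the sequencing depth is unknown, and no value has an error between replicates. A region shows that H3K9me3 was called there after knockdown and does not show that knockdown put it there.

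POU5F1 (which encodes OCT4), SOX2 and NANOG encode transcription factors that bind their own and each other's control elements and hold the pluripotent state. OCT4, SOX2, KLF4 and c-MYC, introduced together, can return fibroblasts to that state. The endogenous POU5F1 and SOX2 genes are then switched on late and slowly. H3K9me3 heterochromatin is known in fibroblasts as one of the barriers that these factors meet, and ERH, a small conserved nuclear protein, is the candidate heterochromatin factor tested in this study.

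Among the 32 genes, TERT was the only one with an H3K9me3 region in its gene body, 3.12% of the list (Wilson 95% interval 0.55 to 15.7%). The share of all protein-coding genes that shared 1 bp or more with a region was 10.5%. A region lay within 100 kb of 5 of the 32 genes, 15.6% (Wilson 95% interval 6.86 to 31.8%), against 43.2% of all protein-coding genes. The 5 were TERT, KLF17, DPPA5, FGF4 and TFCP2L1. The share near the genes depended on the distance asked for. Within 200 kb, 18 of 32 genes had a region (56.2%), against 62.1% of all genes, and within 500 kb 28 of 32 did (87.5%), against 86.9%. None of the 32 genes lies on X or Y, where regions were sparse. Among autosomal genes alone the shares were 10.9% for overlap and 89.8% within 500 kb. Of the 7 distances compared, from 10 to 1000 kb, the shares differed most at 100 kb, and they were close at 500 kb. The choice of limit matters here, since KLF2 at 102 kb and DNMT3B at 105 kb lay just outside the 100 kb limit. These intervals cover counting error only, neighbouring genes share regions, and no test was made because 1 merged list has no replicates.

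**Figure D1:**
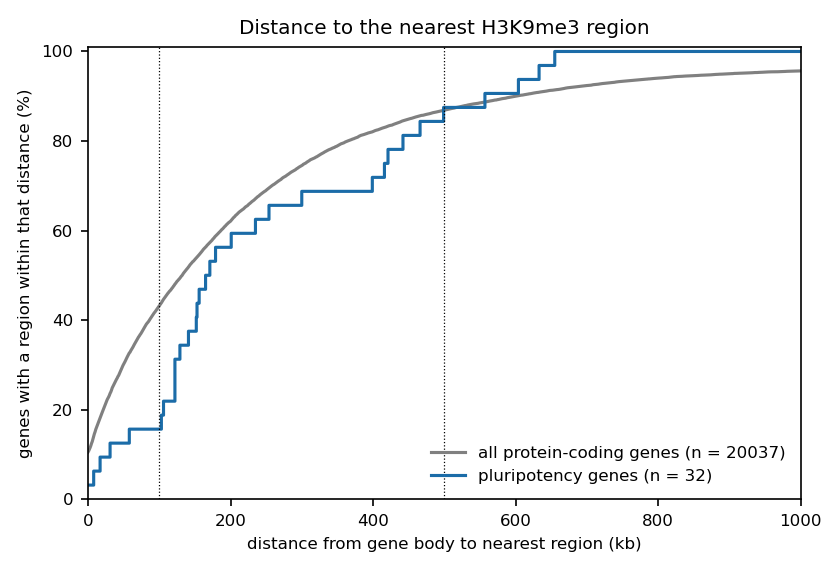
Share of genes with a region within a given distance (x axis, kb from the gene body; y axis, percent of genes) for the 32 pluripotency genes (stepped line) and all 20037 protein-coding genes (smooth line). Dotted lines mark 100 kb, where the shares were 15.6% and 43.2%, and 500 kb, where they were 87.5% and 86.9%.

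The median distance from gene body to nearest region was 168 kb over the 32 genes (25th to 75th percentile 122 to 417 kb, highest 654 kb). All protein-coding genes had a median of 132 kb (25th to 75th percentile 34.7 to 304 kb). Of the 32 genes, 21 lay farther from a region than the all-gene median.

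Gene length bears on overlap, and the listed genes were short, with a median length of 14.5 kb against 24.1 kb for all protein-coding genes. Of genes up to 10 kb long, 0.755% overlapped a region genome-wide, and 0 of the 14 listed genes of that length did, which allows up to 21.4%. Between 10 and 50 kb the genome-wide share was 5.87%, and 1 of 13 listed genes, TERT, overlapped. Above 50 kb it was 25.3%, and 0 of 5 did, which allows up to 60%. Those 5 were LIN28B, ESRRB, CDH1, KLF17 and TFCP2L1. The count of 1 overlap among 32 is thus read against genes that mostly had little length to overlap. For the 100 kb distance, the shares of all genes were 34.3%, 39.8% and 55.6% in the same length classes, and the listed genes had 2 of 14, 1 of 13 and 2 of 5.

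Promoter sequences of 21 of the 32 genes were found in the RefSeq promoter table (GRCh38.p14). Each promoter window ran from 250 bases before to 50 after the outermost start of the gene in that table. For DNMT3B, DPPA4, KLF17, LIN28B and NODAL this start lay inside the gene body, not at its edge. None of the 21 windows overlapped a region, which allows a share of up to 14.3%, and 0.151% of 15843 protein-coding promoters did, so that an absence here is the common state. The 250 bases before the start of 4 of them are printed 5′ to 3′ on the gene's strand. NANOG is shown for its composite element and SOX2 because its protein was the factor profiled. DPPA5 is shown for the shortest distance from start site to region among the 21 genes, and OTX2 for the longest. Capitals mark matches to 3 motifs on either strand: the octamer ATGCAAAT bound by OCT4, the SOX core ACAATG, and an octamer-SOX composite, which reads TTGCAT, then any base, then ACAA, and overlaps the SOX core by some bases. The motifs were chosen with the NANOG element known.
NANOG, chr12:7789152-7789401, plus strand: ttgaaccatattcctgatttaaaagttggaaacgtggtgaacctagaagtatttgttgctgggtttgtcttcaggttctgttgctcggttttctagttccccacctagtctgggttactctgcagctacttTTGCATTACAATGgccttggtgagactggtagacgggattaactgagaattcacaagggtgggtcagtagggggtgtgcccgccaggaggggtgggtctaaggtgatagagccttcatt
SOX2, chr3:181711675-181711924, plus strand: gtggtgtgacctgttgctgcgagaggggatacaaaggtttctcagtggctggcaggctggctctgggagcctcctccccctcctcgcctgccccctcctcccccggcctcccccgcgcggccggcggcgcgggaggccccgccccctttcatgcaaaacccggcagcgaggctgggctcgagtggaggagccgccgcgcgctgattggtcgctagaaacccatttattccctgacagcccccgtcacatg
DPPA5, chr6:73354277-73354526, minus strand: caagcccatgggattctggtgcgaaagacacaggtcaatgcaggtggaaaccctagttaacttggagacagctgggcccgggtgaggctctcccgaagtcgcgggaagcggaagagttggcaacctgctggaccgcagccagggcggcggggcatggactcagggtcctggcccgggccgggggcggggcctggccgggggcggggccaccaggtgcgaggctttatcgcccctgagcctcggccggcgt
OTX2, chr14:56810480-56810729, minus strand: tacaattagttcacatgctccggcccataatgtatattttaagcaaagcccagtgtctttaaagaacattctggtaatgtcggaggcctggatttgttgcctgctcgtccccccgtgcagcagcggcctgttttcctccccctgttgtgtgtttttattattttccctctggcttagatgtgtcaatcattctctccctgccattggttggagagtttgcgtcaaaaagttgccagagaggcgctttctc

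The composite stood 119 to 109 bases before the NANOG start and was found in 1 of the 21 promoters and in 8 of all 15843 (0.0505%). The SOX core was present in 4 of 21 (NANOG, GDF3, KLF5 and LIN28B) and in 6.69% of all, and the octamer in 0 of 21 and 1.67% of all. A match describes these letters only and shows no binding.

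The 21 promoters also differed widely in CpG content, the dinucleotide at which vertebrate DNA is methylated. CpG content was also counted in the 250 bases before each start only. The ratio of observed to expected CpG had a median of 0.505, against 0.735 over all 15843 promoters. It was below 0.4 in 9 of 21 (42.9%), against 26.1% of all. In the bases measured, CpG-poor promoters were those of DPPA3, DPPA4, GDF3, NANOG, ESRRB, TDGF1, KLF5, NODAL and DNMT3B. The windows of DPPA4, NODAL and DNMT3B, and those of LIN28B and KLF17, lay at starts inside the gene body. For these genes a promoter at the outer edge was not measured. UTF1, LIN28B and KLF2 had ratios of 1.04, 1.03 and 1.03. The genes of the 9 CpG-poor promoters lay 105 to 498 kb from a region, with DNMT3B the closest and NANOG the farthest. The 4 genes of the 21 with a region within 100 kb all had ratios above 0.4: KLF17 0.51, DPPA5 0.66, TERT 0.77 and TFCP2L1 0.87. Ratios above 0.4 were also found far from regions, as for KLF4 (0.84) at 299.9 kb. Ratios of 0.4 or more were the common state, since 26.1% of all promoters fell below it. The share of all CpG-poor promoters whose genes lie near a region was not computed. The separation at 100 kb therefore has no background beside it. This is a description of 21 genes, and no test was made.

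None of the 7 reprogramming factor genes had a region within 100 kb, as was also the case for the DNA methylation and the epithelial adhesion genes, 2 each. A count of 0 among 7 genes still leaves room for a true value as high as 42.9%, close to the 43.2% of all protein-coding genes. Every one of the 7 reprogramming factor genes had at least 1 region within 500 kb, against 86.9% of all protein-coding genes. POU5F1 on chromosome 6 (31164337 to 31170682) had 6 regions within 500 kb. The nearest, at 31326218 to 31329021, was 156 kb away, and the one beside it, at 31334543 to 31341248, had the highest score of the 6, 83285. The score is the authors' own value for a region, and its unit is not stated. It ran from 12640 to 48588344 with a median of 24171 on these chromosomes, and 83285 is at the 94.1th percentile. SOX2 on chromosome 3 (181711925 to 181714436) also had 6 regions, arranged as 3 on each side, and no other protein-coding gene lay within 500 kb. The 3 on its lower side, from 200.2 to 314 kb away, all lay in SOX2-OT, the long non-coding RNA gene that spans SOX2. The closest of them, at 181508536 to 181511701, was 3166 bp long with a score of 22267.

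KLF4, an endogenous target and partner of OCT4 and SOX2, had 3 regions within 500 kb, the nearest 299.9 kb away. Their scores ran from 15415 to 18402, at or below the 27.4th percentile of the list. MYC, the proto-oncogene that encodes c-MYC, had a single region 415 kb away, inside the non-coding genes CASC8 and CASC21. NANOG likewise had 1 region, at chromosome 12 from 7288542 to 7291342, 498 kb from its body. With the next region on the other side 1168 kb away, NANOG sat in a stretch of 1676 kb between regions.

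LIN28A and LIN28B encode RNA-binding proteins that block let-7 microRNA maturation, and LIN28A is used as a reprogramming factor. The LIN28A locus had 1 region, 465 kb away. LIN28B had 5, of which the nearest was 153 kb away, and 1 lay in the ubiquitin ligase gene HACE1. At 146 kb LIN28B was the second longest gene of the list, and its body held no region.

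**Figure D2:**
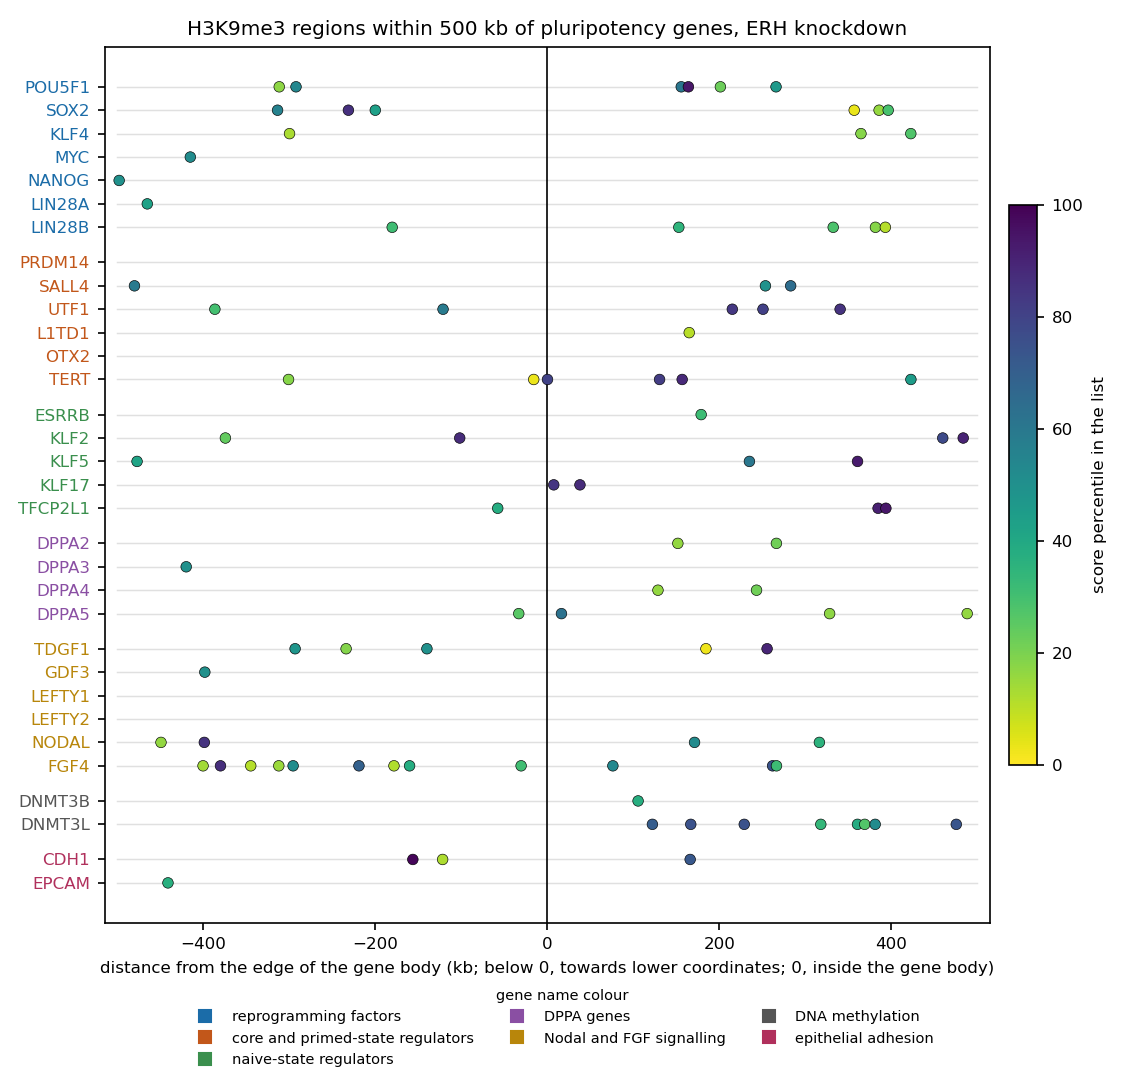
Every region within 500 kb of each of the 32 genes, as distance from the nearer edge of the gene body in kb (x axis; below 0, towards lower chromosome coordinates; 0, inside the body), with 1 row per gene and names coloured by role. Point colour is the score percentile in the whole list. The rows of LEFTY1, LEFTY2, OTX2 and PRDM14 are empty, FGF4 has 12 points, and the point at 0 is the region inside TERT.

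Among core and primed-state regulators the genes ranged from the 1 with a region inside it to some of the farthest. TERT encodes the catalytic subunit of telomerase, which is silent in most somatic cells and is switched on in pluripotent ones. Its region lay on chromosome 5 from 1260487 to 1264952, within the gene body at 1253167 to 1295068, and covered 10.7% of it. The region was 4466 bp long, with a score of 40994 at the 80.2th percentile. TERT is read from the higher coordinate, and its start site was 30.1 kb from the region, which therefore lay towards the end of the gene. Exons were not part of the annotation used, so the region was not assigned to an exon or intron. A second region lay 16.0 kb beyond the end of TERT, in the transporter gene SLC6A18, and another 130 kb beyond the start, in the dopamine transporter gene SLC6A3. In all 6 regions stood within 500 kb of TERT and covered 2.21% of that window.

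UTF1, a chromatin-associated factor of undifferentiated cells, had 5 regions within 500 kb. The nearest lay in ADGRA1, 121 kb upstream of the start, and the 3 on the other side, 215 to 340 kb away, had scores at the 81.1th to 85.5th percentile. SALL4, a zinc finger factor of the core network, had 3 regions, the nearest 253 kb away. L1TD1, an RNA-binding protein derived from a LINE-1 element, had a single region of low score (15008) at 165 kb.

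PRDM14 and OTX2 had no region within 500 kb. PRDM14, a repressor that guards the pluripotent state and the germ line, was 557 kb from the nearest, which lay in LACTB2-AS1. OTX2, a homeodomain factor of the primed state and forebrain, was 632 kb from the nearest, which lay in PELI2. Over all genes, 13.1% had no region within 500 kb.

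Genes of the naive state included both near and distant loci. KLF17, a marker of the naive state and of the human early embryo, had the shortest distance without overlap: a region of 4341 bp at chromosome 1, 44142420 to 44146760, lay 7.28 kb beyond the end of the gene. Its score of 46578 was at the 84.7th percentile. A further region of 5494 bp stood 37.7 kb from the gene. No other region was found within 500 kb, so both regions around KLF17 lay on the same side.

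TFCP2L1, a factor of the naive network, was 57.9 kb from a short region of 1935 bp beyond its end, at chromosome 2, 121156789 to 121158723. Its start site was 126 kb from that region. Of its 3 regions the highest scores, 63556 and 83480, belonged to a pair in NIFK-AS1, 384 and 393 kb away.

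KLF2, KLF5 and ESRRB had their nearest regions at 102, 235 and 179 kb. The KLF2 region lay in the adaptor gene AP1M1 and had a score of 52292, at the 87.7th percentile. ESRRB, an orphan nuclear receptor gene that is the longest gene of the list at 191 kb, had 1 region, beyond its end and 370 kb from its start site.

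The DPPA genes are expressed in early embryos and germ cells and are silent in most adult tissues. DPPA5 stood apart from the other 3. Regions flanked it at 33.4 kb and 16.2 kb, the latter at chromosome 6, 73370514 to 73373626, overlapping its neighbour OOEP, an oocyte-expressed gene. The stretch between these regions, 50.9 kb, was the shortest around any gene of the list that held no region itself. DPPA2 and DPPA4, neighbours on chromosome 3 that encode DNA-binding partners, shared both of their regions, at 152 and 128 kb for the nearer one. That region lay in LINC01205, and its score of 16132 was at the 16.2th percentile. On their other side the next region was 845 kb from DPPA2. DPPA3, a maternal factor that protects against DNA demethylation, was 420 kb from its only region.

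The region nearest DPPA3 was also the nearest for NANOG and for GDF3, a growth factor gene, since the 3 genes stand together on chromosome 12. Likewise LEFTY1 and LEFTY2 shared their surroundings on chromosome 1. Counted as loci, with genes within 500 kb of each other joined, the 32 genes made 28 loci. Of these 1 overlapped a region, 5 had one within 100 kb and 25 within 500 kb.

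Nodal signalling, which runs through the receptors shared with activin and keeps human pluripotent cells undifferentiated, was represented by its ligand, co-receptor and inhibitors. NODAL, the ligand, had 4 regions within 500 kb, the nearest 171 kb away. TDGF1, which encodes the co-receptor Cripto and is named CRIPTO in the gene table, had 5, the nearest 140 kb away. GDF3, a related ligand, had the 1 region it shared with NANOG, at 398 kb. The inhibitors LEFTY1 and LEFTY2 were 604 and 654 kb from a region in DNAH14. LEFTY2 was thereby the farthest gene of the list, at the 91.4th percentile of all genes.

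FGF4, a growth factor gene that is a target of OCT4 and SOX2, lay at the other extreme. It had 12 regions within 500 kb, the highest count of the list, and these covered 3.65% of the window. Of all genes, 28.1% had 5 or more regions in that window, and 8 of the 32 did. The nearest to FGF4 (chromosome 11, 69771022 to 69775341) were at 30.7 kb on the lower side and 76.0 kb on the higher side. Of the 12 regions 9 lay on the lower side, none in a protein-coding gene, and 2 of the 3 on the higher side lay in ANO1. Their scores were moderate, from 15079 to 50459.

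DNMT3L, a cofactor of the de novo DNA methyltransferases, had the second highest count, 8 regions. All 8 lay on its higher side, from 122 to 475 kb, and 2 were in the ion channel gene TRPM2 and 4 in TSPEAR, in which keratin-associated protein genes are nested. The other side was free of regions for 700.3 kb. DNMT3B, a de novo DNA methyltransferase abundant in pluripotent cells, had 1 region, at 105 kb in EFCAB8, and none for 1490 kb on the other side.

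CDH1 and EPCAM encode epithelial adhesion proteins that are absent from fibroblasts and appear when cells being reprogrammed take on an epithelial form. CDH1 had 3 regions, the nearest 122 kb away. One of the others, 157 kb from CDH1 on chromosome 16 (68554404 to 68580708), was 26305 bp long with a score of 316295, rank 146 of 10507 in the list. It overlapped the zinc finger gene ZFP90 and was the longest region near any of the 32 genes. EPCAM had 1 region, 441 kb away, overlapping MCFD2 and TTC7A.

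**Figure D3:**
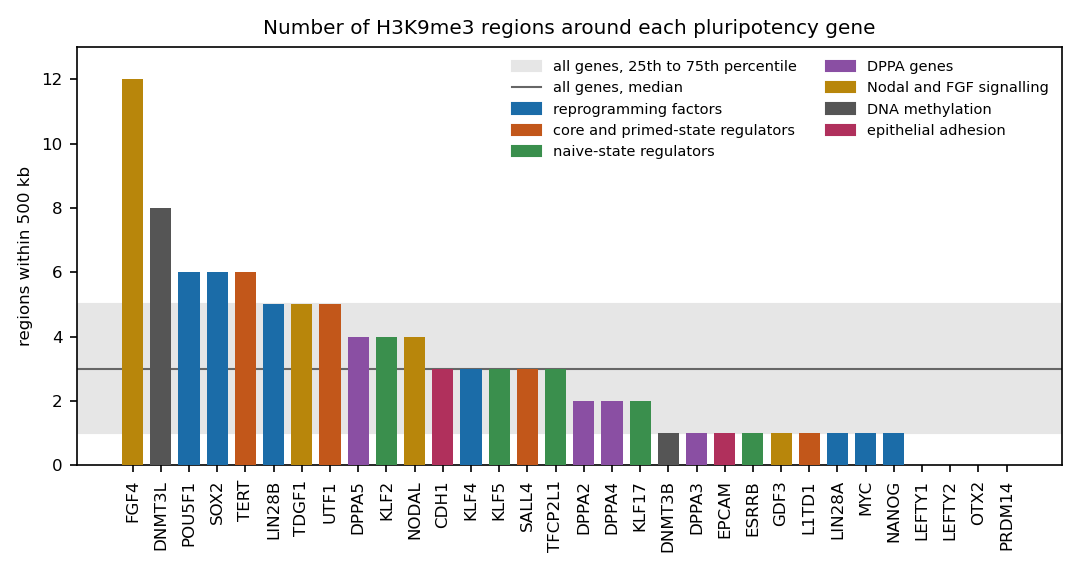
Number of regions within 500 kb of each gene (bars, coloured by role), with the median of all protein-coding genes, 3, as a line and their 25th to 75th percentile, 1 to 5, as a band. FGF4 has 12 and DNMT3L 8, and LEFTY1, LEFTY2, OTX2 and PRDM14 have none.

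Counted over all 32 genes, the median number of regions within 500 kb was 2.5, against 3 for all protein-coding genes. There were 16 genes below that median, 5 at it and 11 above it. The regions covered a median of 0.836% of the windows (range 0 to 3.65%), against 0.924% for all genes. Counts of regions within 500 kb thus lay near the background, in contrast to the share with a region within 100 kb.

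Together 91 different regions lay within 500 kb of a listed gene. Their median length was 3149 bp, against 3529 bp for all 10507 regions, and 1 of them (1.10%) was at least 10 kb long, against 5.29%. Their median score was 22735, against 24171. Of the 91, 25 (27.5%, Wilson 95% interval 19.4 to 37.4%) overlapped a protein-coding gene, against 30.9% of all regions. Zinc finger genes, defined by symbol, held 2 of the 91 (2.20%), ZFP90 and ZFP64, against 3.6% of all regions. None of the 91 was a split row with a repeated score.

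**Figure D4:**
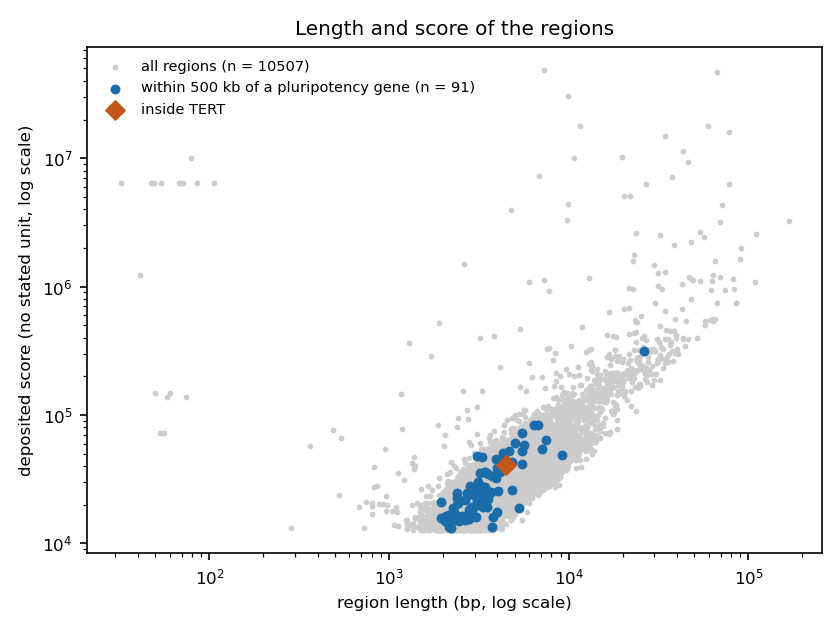
Length (x axis, bp, log scale) and deposited score (y axis, no stated unit, log scale) of all 10507 regions in grey, the 91 within 500 kb of a listed gene in blue and the one inside TERT as a diamond. The blue points lie within the main cloud, apart from the 26305 bp region near CDH1.

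When only the higher-scoring regions were kept, those not below the median score of the list, the shares moved apart at 500 kb and closer together at 100 kb. A region of that kind lay within 500 kb of 16 of the 32 genes (50%), against 69.6% of all protein-coding genes. Within 100 kb it was 4 of 32 (12.5%), against 26.8%, and TERT still held 1 (background 6.33%). The median distance to such a region was 463 kb for the listed genes and 264 kb for all genes.

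For the 21 genes with a known strand, the nearest region was upstream of 10, downstream of 10 and inside 1. The nearest regions were 28 different ones, of which 9 overlapped a protein-coding gene, 4 only a long non-coding RNA gene and 15 neither.

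Other gene lists were measured in the same way, as descriptions with no test of a difference. A list of 28 further pluripotency genes overlapped a region in 1 case, JARID2, a Polycomb-associated gene (1.64% of its body covered). It had a region within 100 kb in 9 cases (32.1%), and its median distance was 206 kb. Of 30 other genes of the Nodal and FGF pathways, 1 overlapped (ACVR2B, a type II activin receptor gene, 8.34% covered), and 18 (60%) had a region within 100 kb. Their median distance was 68.5 kb. Receptors and inhibitors of the pathway near a region included ACVR1B at 5.84 kb, TGFBR2 at 7.85 kb and CER1, a secreted Nodal inhibitor gene, at 9.43 kb. These pathway genes had a median length of 48.0 kb, longer than the 14.5 kb of the 32 genes.

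Hepatocyte genes, typically silent in fibroblasts and short like the 32 genes (median length 11.6 kb), overlapped in 1 of 28 cases (TF, 3.79% covered) and had a region within 100 kb in 12 (42.9%). Meiotic and germline genes overlapped in 7 of 39 (17.9%): PIWIL4, HORMAD2, DMC1, ASZ1, SMC1B, STK31 and SYCP1, with 10.7% to 1.60% of the body covered. A region lay within 100 kb of 22 of them (56.4%). Genes typically active in fibroblasts overlapped in 2 of 22 (DCN and PDGFRA, 9.25% and 7.67% covered), and 17 (77.3%) had a region within 100 kb, at a median distance of 43.9 kb. Heterochromatin factor genes overlapped in 5 of 26 (19.2%, Wilson 95% interval 8.51 to 37.9%): ATF7IP, SETDB2, SETDB1, KDM4B and KDM4C. A region lay within 100 kb of 10 of the 26 (38.5%). Over all protein-coding genes the shares were 10.5% for overlap and 43.2% within 100 kb. The overlap shares of these 3 lists come from longer genes, with median lengths of 54.1 kb (germline), 35.5 kb (fibroblast) and 48.7 kb (heterochromatin). For the 32 genes it was 14.5 kb, and the lists were not compared within length classes. The share within 100 kb was thus lowest for the 32 genes among the 7 lists, and the range over the other lists was 32.1 to 77.3%. That limit is the one at which the 32 genes differed most from all genes. The Wilson 95% intervals of the 32 genes (6.86 to 31.8%) and the 28 further pluripotency genes (17.9 to 50.7%) overlapped. By median distance those 28 genes lay farther from a region, at 206 against 168 kb, with a median of 2 regions within 500 kb against 2.5.

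**Figure D5:**
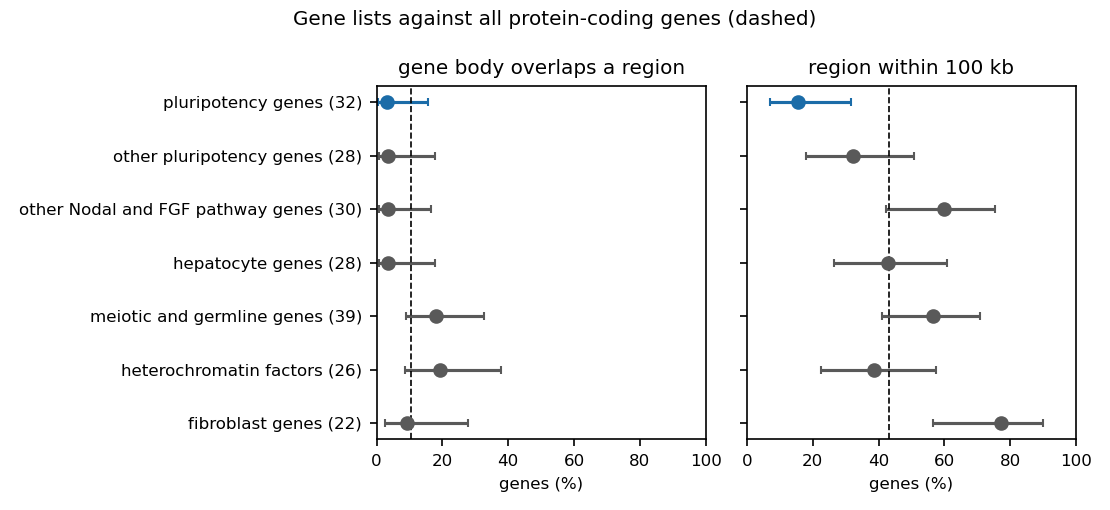
Share of genes in each list (percent, number of genes in parentheses) whose body overlaps a region (left) and with a region within 100 kb (right), with Wilson 95% intervals that cover counting error only. Dashed lines mark all protein-coding genes, 10.5% and 43.2%, and the 32 pluripotency genes have 3.12% and 15.6%.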

How the data were processed

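H3K9me3 CUT&RUN regions of BJ fibroblasts after ERH knockdown were analysed. The authors deposited 1 merged list of 10536 regions with a whole-number score per region, whose unit and merging rule are not given in the sources used here. A further deposited column, of no stated unit, numbers rows and is above 1 in 17 of them. The submitters' processing notes name hg38 and Bowtie2 2.3.4.1, SAMtools 1.16.1, bedtools 2.27.1, deepTools 3.5.0, R 3.6.3 and SEACR 1.3, without roles or settings. The 10507 regions on chromosomes 1 to 22, X and Y were used. Gene positions came from the RefSeq table of GRCh38.p14, in which 31 listed genes matched by symbol and 1 by synonym.

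Distances are bases between gene body and region, printed 1-based, and windows extend 500 kb from each side of the gene body. Values for the list were set beside those of all protein-coding genes. With a single merged list, no test, replicate error, depth or knockdown comparison was possible, and the precision that the read depth gives is unknown. Beside the counts of 0 for length classes, promoter overlap and the reprogramming factors stands the share that a count of 3 would give. Groups of 2 genes are too few for it. The interval arithmetic was checked on 500 simulated cases against base-by-base counts and differed in 0. Python 3.11.15, numpy 2.4.6, pandas 2.3.3, scipy 1.17.1 and matplotlib 3.10.9 were used.

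The 32 genes, the comparison lists and the rules were chosen with earlier results of these data known. Genes described one by one were those with a region within 100 kb, the 3 with most regions, the 3 farthest and, by role, the rest. Genes of other lists were named where they overlapped a region, and ACVR1B, TGFBR2 and CER1 after their values were seen. Length classes, motifs, CpG content and the 200 kb share were also chosen after the data were seen.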

Additional observations from a re-analysis of the deposited data

How the results depend on the processing

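Alternatives gave 48 values for 8 results, of which 40 stayed within 1.5 times the main count or within the 95% interval of the share or median. Using only regions at or above the median score, which leaves 5254 of 10507 by construction, gave 16 genes with a region within 500 kb, a median distance of 463 kb, a median of 0.5 regions and 0.119% of the window covered. Measuring from the gene start, or the midpoint where no strand was known, gave 0 overlaps, against 0.289% of all genes, because a single base replaced the gene body. A window of 200 kb gave 18 genes with a region. Among all protein-coding genes, 7.11% of those no longer than the longest listed gene overlapped a region, and 89.8% of autosomal genes had one within 500 kb. Regions of at least 2 kb, joining within 5 kb, leaving out split rows, dropping regions whose score exceeded 20 per base pair, and counting shared loci once kept every result they were tried on, within these limits. Values still shifted inside the limits. With regions of at least 2 kb, 4 genes rather than 5 had one within 100 kb, as the region near TFCP2L1 is 1935 bp long. The median number of regions was then 2 rather than 2.5. The depth behind the regions is unknown, so a weak signal under the authors' threshold cannot be told apart from none. No replicate could be left out, and no paired analysis was possible because the list merges the replicates of 1 group.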
